A study of Mus musculus with 6 samples.

Results

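The interferon-inducible GTPases described here were 9 genes, taken by symbol from the deposited expression table of 24525 gene rows. They comprised 5 guanylate-binding proteins (GBPs; Gbp2, Gbp3, Gbp4, Gbp5 and Gbp7) and 4 immunity-related GTPases (IRGs; Irgm1, Irgm2, Igtp and Iigp1), and all 9 rows were found. RNA from mouse hearts was sequenced in 3 double-knockout (DKO) libraries, replicates 7, 8 and 9, and 3 wild-type (WT) libraries, replicates 4, 5 and 6, from animals aged 3 to 6 months. Per the series' design text, DKO mice were Mbnl1-/- and Mbnl2 cond/cond and carried 1 copy of a Myh6-Cre transgene (Myh6-Cre+/-). The Mbnl1 allele is labelled null in the whole animal, whereas Cre from the cardiomyocyte promoter of Myh6 was to remove Mbnl2 in cardiomyocytes, and other heart cells kept their Mbnl2 alleles. WT mice are described by that label alone, and no treatment is given for either group. The question put to these genes was whether their transcript levels differed between DKO and WT hearts. Levels are TPM, an estimate of transcript number that allows for transcript length and is scaled to a common total in each library. In bulk tissue, a change in the number of cells of a type cannot be told apart from a change of RNA per cell.

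GBPs and IRGs are GTPases of cell-autonomous immunity in the mouse. Interferon gamma binds its receptor on a cell, and the signal passes through the kinases JAK1 and JAK2 to GAS elements in promoters. Type I interferons act through a complex with IRF9 that binds the interferon-stimulated response element (ISRE), to which other interferon regulatory factors such as IRF1 also bind. GBPs coat and disrupt pathogen vacuoles and bacteria and promote inflammasome activation, and Gbp2 and Gbp5 carry a lipid anchor at their C terminus. Irgm1, Irgm2 and Igtp (also called Irgm3) are regulatory IRGs that sit on host membranes, and Iigp1 (also called Irga6) is an effector IRG that loads onto vacuoles. Many cell types, among them macrophages and endothelial cells, make these proteins after exposure to interferon.

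Promoter sequence was examined first, since these genes are known as interferon targets. RefSeq windows of GRCm38.p6, from 250 bases before to 50 bases after a gene start, were searched for 7 of the 9 genes. These were 8 windows in all because Gbp3 has 2 starts. No window was at hand for Gbp4, and Iigp1 was left out of the search, so the member counts below cover neither gene. An ISRE core, searched as GAAANNGAA on both strands, was present in at least 1 window of 7 of 7 genes, against 9.76% of 27025 genes with windows. A GAS element, searched as TTCNNNGAA on both strands, was present in the windows of 4 of 7 genes (Igtp, Irgm2, Gbp5 and Gbp7), against 9.55% of genes. Both motifs occurred together in 4 of 8 windows, against 1.07% of 32851 windows. Matches of the 2 motifs did not overlap each other in these windows. These are matches of letters and not measurements of binding.

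A set of 5 windows is shown to set out this arrangement, written 5′ to 3′ along the gene with matches to either motif in capitals. Igtp and Irgm2 are neighbours on chromosome 11 whose windows were 72.8% identical in a global alignment. Irgm1 lies elsewhere on chromosome 11, Gbp7 holds both motifs, and Gbp2 had the smallest expression difference of the 9 genes.
Igtp, chr11:58199306-58199605, plus strand: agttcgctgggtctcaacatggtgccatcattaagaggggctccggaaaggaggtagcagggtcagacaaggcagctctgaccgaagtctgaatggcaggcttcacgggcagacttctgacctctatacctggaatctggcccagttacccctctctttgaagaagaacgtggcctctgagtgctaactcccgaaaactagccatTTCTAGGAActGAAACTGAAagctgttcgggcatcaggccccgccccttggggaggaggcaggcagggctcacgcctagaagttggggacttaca
Irgm2, chr11:58214727-58215026, plus strand: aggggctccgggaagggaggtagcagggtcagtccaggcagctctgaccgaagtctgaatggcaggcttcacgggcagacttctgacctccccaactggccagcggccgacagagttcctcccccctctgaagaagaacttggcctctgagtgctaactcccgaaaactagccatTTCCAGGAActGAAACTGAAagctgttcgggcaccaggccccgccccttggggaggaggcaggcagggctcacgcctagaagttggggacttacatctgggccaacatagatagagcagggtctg
Irgm1, chr11:48871371-48871670, minus strand: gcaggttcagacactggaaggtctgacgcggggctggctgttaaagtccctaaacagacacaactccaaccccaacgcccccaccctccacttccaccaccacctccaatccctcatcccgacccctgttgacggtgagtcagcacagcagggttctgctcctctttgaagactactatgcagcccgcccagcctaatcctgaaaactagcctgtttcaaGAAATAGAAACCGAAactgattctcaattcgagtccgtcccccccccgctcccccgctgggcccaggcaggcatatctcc
Gbp7, chr3:142530086-142530385, plus strand: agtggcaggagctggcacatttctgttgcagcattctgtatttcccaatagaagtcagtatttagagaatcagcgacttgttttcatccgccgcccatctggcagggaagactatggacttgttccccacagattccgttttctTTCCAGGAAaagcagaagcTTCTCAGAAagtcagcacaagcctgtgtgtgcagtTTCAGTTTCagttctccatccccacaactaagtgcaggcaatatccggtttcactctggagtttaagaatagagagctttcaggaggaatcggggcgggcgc
Gbp2, chr3:142620413-142620712, plus strand: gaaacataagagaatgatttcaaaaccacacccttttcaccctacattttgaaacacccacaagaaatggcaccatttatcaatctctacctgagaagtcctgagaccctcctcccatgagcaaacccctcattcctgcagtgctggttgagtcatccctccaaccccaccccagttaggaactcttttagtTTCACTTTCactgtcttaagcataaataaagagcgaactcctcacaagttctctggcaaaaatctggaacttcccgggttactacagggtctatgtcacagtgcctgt

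In Igtp the GAS match TTCTAGGAA began 45 bases upstream of the start and the ISRE match GAAACTGAA 34 bases upstream. Irgm2 had the same order of motifs, with TTCCAGGAA 75 bases and GAAACTGAA 64 bases upstream. Irgm1 held overlapping ISRE matches that began 30 and 24 bases upstream and no GAS match. In the GBP windows every ISRE match lay on the opposite strand, at 52 bases upstream in Gbp7, 58 in Gbp2, 44 and 38 in the first window of Gbp3, and 164 in Gbp5. The second window of Gbp3 had no match to either motif.

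**Figure D1:**
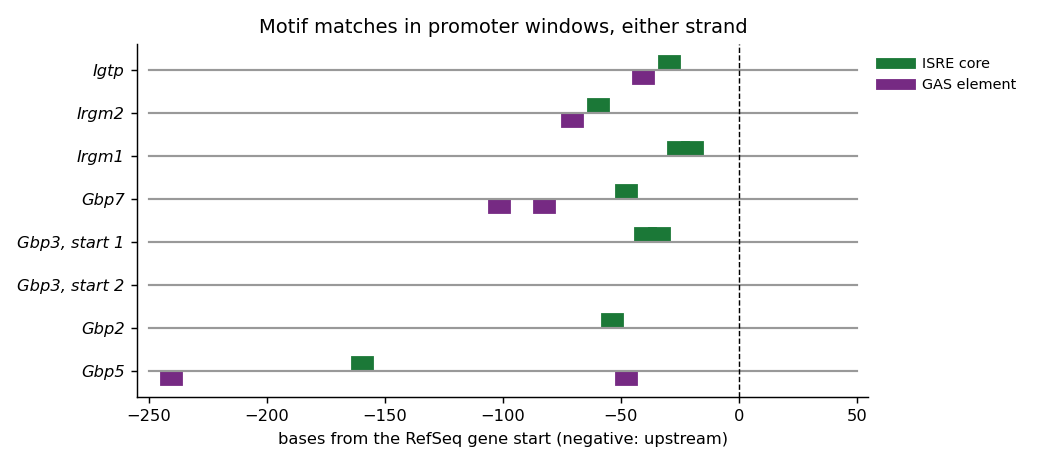
Positions of ISRE core and GAS matches in the RefSeq promoter windows, in bases from the gene start (dashed line). Rows are gene starts, ISRE matches lie above each line and GAS matches below it. The ISRE match nearest the start began between 24 and 64 bases upstream in all windows that held one except that of Gbp5, where it began 164 bases upstream.

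Before the values, DKO 7 needs a description, because it stood apart in these genes. Its title and source name say DKO but its genotype tag says WT, and it is counted as DKO here. Across all genes tested its Pearson correlation was 0.951 and 0.955 with DKO 8 and DKO 9, and between 0.923 and 0.939 with the WT libraries. The targeted gene Mbnl1 had 102, 108 and 108 TPM in DKO 7, 8 and 9, against 161, 160 and 145 TPM in WT 4, 5 and 6, and Mbnl2 had 227, 240 and 245 TPM in DKO, against 189, 168 and 149 TPM in WT. In the limma fit described below Mbnl1 fell and Mbnl2 rose in DKO (BH adjusted p = 0.00673 and 0.0232); Mbnl2 was not called when any library but WT 4 was left out (highest BH adjusted p 0.0748 in limma, without DKO 8). DKO libraries thus kept transcripts of both targeted genes, and since values per gene do not show which exons the reads came from, neither gene gave a check of its deletion. Xist stood at 152 TPM in DKO 7 and 174 TPM in DKO 8, which had almost no Y-linked transcripts, whereas DKO 9 and the WT libraries carried 163 to 179 TPM over 4 Y-linked genes. The adult beta-globin row Hbb-bs read 1690 TPM in DKO 7, 1.15 and 0.892 TPM in DKO 8 and DKO 9, and 1436 to 14182 TPM in WT. Column totals lay between 999963 and 999991 TPM, and since TPM keeps no counts the sequencing depth is unknown. The cardiomyocyte markers that define the labelled tissue were abundant in all 6 libraries, with 75974 to 76913 TPM over 10 genes in DKO and 77534 to 80092 TPM in WT.

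All 9 GTPases were higher in DKO 7 than in any other library, and DKO 8 and DKO 9 lay much closer to WT. The summed level of the 9 genes was 2010.0 TPM in DKO 7, 302 TPM in DKO 8 and 274 TPM in DKO 9, against 173, 156 and 179 TPM in WT 4, 5 and 6. In DKO 7 all 9 genes were at least 2-fold over the WT mean, a level that 5.6% of all genes tested reached in that library. In DKO 8 this held for 2 genes, Irgm2 and Igtp (6.43% of all genes), and in DKO 9 for 1 gene, Igtp (5.48% of all genes).

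**Figure D2:**
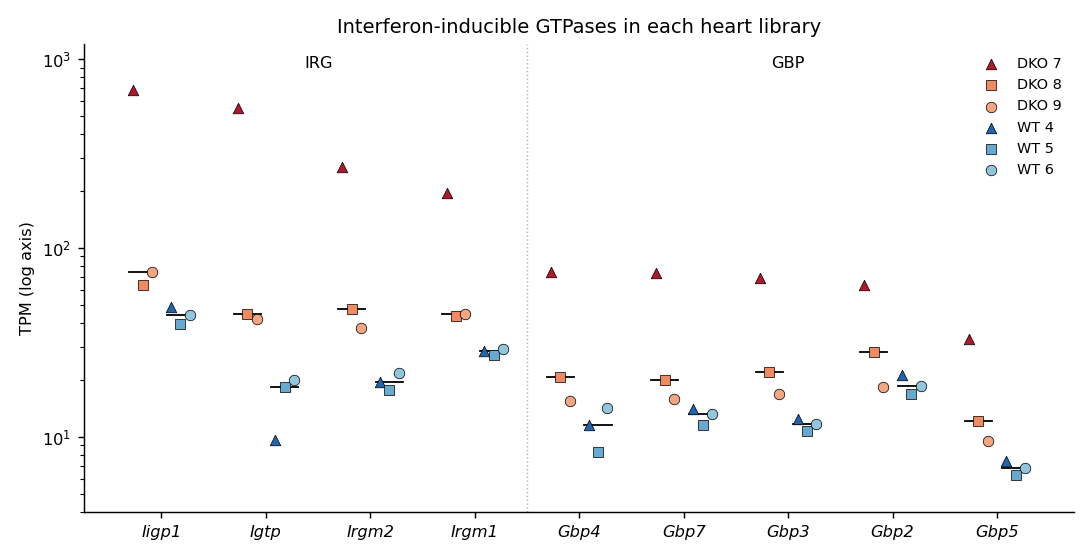
TPM of each GTPase in each library on a log axis, with IRGs on the left and GBPs on the right. Points are libraries, DKO left of WT within each gene, and the short lines are group medians. DKO 7 is the highest point for all 9 genes, and Igtp spans 9.60 to 547 TPM.

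Among the regulatory IRGs, Igtp (chromosome 11, 58199556 to 58207592) showed the widest range. It had 547, 44.5 and 42.0 TPM in DKO 7, 8 and 9, against 9.60, 18.4 and 20.0 TPM in WT 4, 5 and 6. The groups did not overlap, and within WT replicate 4 was lower than the others. DKO 7 was 34.1-fold over the WT mean of 16.0 ± 5.61 TPM (SD, n = 3), while DKO 8 and DKO 9 were 2.78-fold and 2.62-fold over it.

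Irgm2 (chromosome 11, 58214977 to 58222783), which starts 7.38 kb beyond the end of Igtp, had 268, 47.7 and 37.7 TPM in DKO 7, 8 and 9, against 19.6, 17.6 and 21.8 TPM in WT. The groups were again separate, and DKO 7 was 13.6-fold over the WT mean of 19.7 ± 2.10 TPM (SD, n = 3). Irgm1 (chromosome 11, 48865245 to 48871420), a regulator of lysosomal and mitochondrial membranes whose loss in mice leaves other IRGs misplaced, had 195, 43.3 and 44.6 TPM in DKO, against 28.4, 27.2 and 29.0 TPM in WT. Its WT libraries were tightly grouped (SD 0.930 TPM, n = 3), and DKO 8 and DKO 9 lay close to each other and above all of them.

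Iigp1 (chromosome 18, 60373616 to 60392634), the effector IRG, was the most abundant of the 9 genes in every library. It had 687, 63.7 and 74.1 TPM in DKO 7, 8 and 9, against 48.5, 39.6 and 43.9 TPM in WT. The groups did not overlap, and DKO 7 was 15.6-fold over the WT mean of 44.0 ± 4.46 TPM (SD, n = 3), against 1.45-fold in DKO 8 and 1.68-fold in DKO 9.

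The ratios of the GBPs in DKO 7 were smaller than those of the IRGs. Gbp5, Gbp7, Gbp3 and Gbp2 lie in that order within 141.1 kb of chromosome 3 (142496934 to 142638008), and Gbp4 lies on chromosome 5 (105115767 to 105139586). Gbp4, which had the largest GBP ratio in DKO 7, read 74.2, 20.7 and 15.4 TPM in DKO 7, 8 and 9, against 11.6, 8.29 and 14.2 TPM in WT. The groups were separate, but DKO 9 exceeded WT 6 by little. Gbp3 had 68.9, 22.0 and 16.9 TPM in DKO, against 12.5, 10.8 and 11.7 TPM in WT, with no overlap. Gbp7, which binds GTP and in mice takes part in oxidative defence, had 73.5, 20.0 and 15.9 TPM in DKO, against 14.0, 11.5 and 13.2 TPM in WT, and its groups were also separate.

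Gbp5, a promoter of inflammasome assembly, was the least abundant GTPase in every library, with 32.9, 12.1 and 9.48 TPM in DKO 7, 8 and 9, against 7.43, 6.26 and 6.84 TPM in WT. Its groups did not overlap. Gbp2 was the exception: it had 63.9, 28.0 and 18.2 TPM in DKO, against 21.2, 16.7 and 18.5 TPM in WT. DKO 9 was thus below both WT 4 and WT 6, and the groups overlapped. In DKO 7 the GBPs were 3.40-fold to 6.54-fold over their WT means and the IRGs 6.91-fold to 34.1-fold. In DKO 8 the ratios were 1.49 to 1.89 for GBPs and 1.45 to 2.78 for IRGs, and in DKO 9 they were 0.970 to 1.45 for GBPs and 1.58 to 2.62 for IRGs.

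The order of the levels also differed in DKO 7. There Igtp ranked 2nd behind Iigp1, followed by Irgm2, Irgm1, Gbp4, Gbp7, Gbp3, Gbp2 and Gbp5. By WT mean the order was Iigp1, Irgm1, Irgm2, Gbp2, Igtp, Gbp7, Gbp3, Gbp4 and Gbp5. In WT, the values of Iigp1 lay wholly above those of Irgm1, those of Irgm1 above those of Irgm2, and those of Gbp4 above those of Gbp5, while neighbours from Irgm2 down to Gbp4 overlapped in range. In DKO 8 and DKO 9 together, Iigp1 was again 1st and Gbp5 last, and Irgm1, Igtp and Irgm2 overlapped at means of 44.0, 43.2 and 42.7 TPM. The IRGs made up 84.4%, 66.0% and 72.3% of the summed level of the 9 genes in DKO 7, 8 and 9, against 61.4%, 65.8% and 64.0% in WT 4, 5 and 6. Igtp alone made up 27.2%, 14.7% and 15.3% of it in DKO, against 5.55%, 11.8% and 11.2% in WT.

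All genes but Gbp2, 8 of 9, had their 3 DKO values above their 3 WT values, an arrangement found in 19.1% of the 14541 genes tested. For each of these 8 a two-sided exact permutation test on log2(TPM + 1) gave p = 0.1, the smallest value the design allows, and p = 0.3 for Gbp2. In the limma fit over all genes on log2(TPM + 1), 0 of the 9 GTPases were called higher or lower at a Benjamini-Hochberg (BH) adjusted p under 0.05, whereas 6.51% of all genes were called higher and 4.22% lower. Of the 9, 6 had an unadjusted p under 0.05 in the direction of a higher level, as did 16.0% of all genes. Log2 differences, DKO minus WT, ran from 0.75 (SE 0.41) for Gbp2 to 2.65 (SE 0.96) for Igtp, with a median of 1.30 against 0.03 over all genes. BH adjusted p in limma ran from 0.121 for Irgm2 to 0.295 for Gbp2.

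DKO 7 was the library farthest from the rest for all 9 genes. It was between 2.76-fold (Gbp2) and 12.6-fold (Igtp) over the mean of DKO 8 and DKO 9. With DKO 7 left out, the remaining 2 DKO libraries gave smaller differences with smaller errors, and 3 of 9 GTPases were called higher (limma, BH adjusted p under 0.05), against 3.55% of all genes. The called genes were the IRGs Irgm1 (log2 difference 0.62, SE 0.08; limma, BH adjusted p = 0.0201), Irgm2 (1.07, SE 0.14; limma, BH adjusted p = 0.0216) and Iigp1 (0.64, SE 0.12; limma, BH adjusted p = 0.0424). Igtp had the largest difference in that fit, 1.44 (SE 0.30), and missed the threshold (limma, BH adjusted p = 0.0559). Gbp3 came nearest among the GBPs, at 0.68 (SE 0.15; limma, BH adjusted p = 0.061), and Gbp2 was farthest, at 0.26 (SE 0.20; limma, BH adjusted p = 0.491). An unadjusted p under 0.05 was reached by 8 of 9, against 15.5% of all genes. Without DKO 8, 0 of 9 were called higher, against 2.34% of all genes, and 7 of 9 had an unadjusted p under 0.05 in limma, against 12.1%. Without DKO 9, 0 of 9 were called higher, against 3.52% of all genes, and 9 of 9 had an unadjusted p under 0.05 in limma, against 13.2%.

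**Figure D3:**
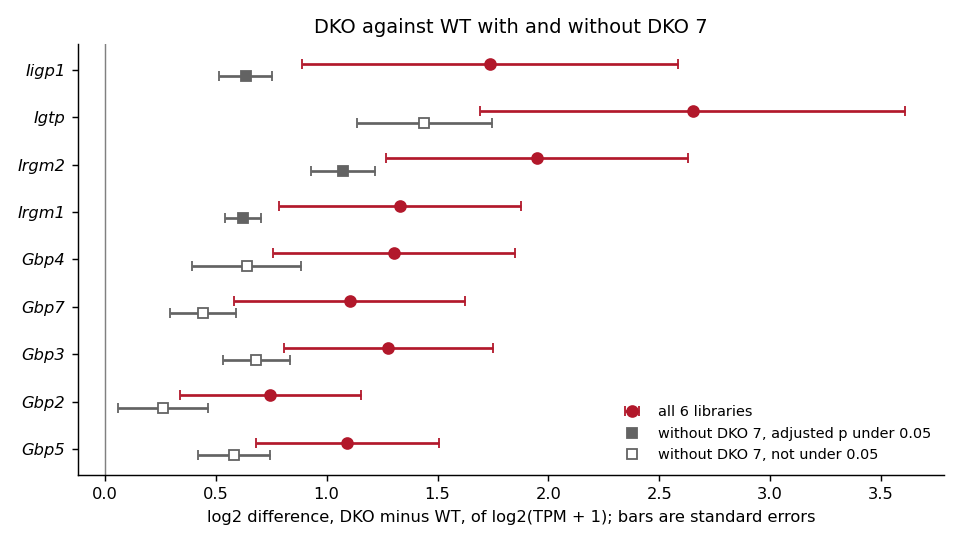
Log2 difference of each GTPase, DKO minus WT, from log2(TPM + 1) values, with its standard error. Red points use all 6 libraries, and grey squares leave out DKO 7, filled where the BH adjusted p in limma is under 0.05. Filled squares mark Iigp1, Irgm2 and Irgm1, whose differences of 0.64, 1.07 and 0.62 are smaller than the 1.74, 1.95 and 1.33 found with all 6 libraries.

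Since DKO 7 and DKO 8 lacked Y-linked transcripts and all WT libraries had them, DKO 9 is the DKO library that matches WT in this respect. Comparing DKO 9 with the 3 WT libraries gave log2 differences from -0.04 for Gbp2 to 1.40 for Igtp, with 0 called (limma, BH adjusted p from 0.113 to 0.949), against 0.0575% of all genes called higher. An unadjusted p under 0.05 was reached by 5 of 9, against 9.03% of all genes. DKO 9 then has no replicate, and its spread is taken from WT. With replicate 7 counted as WT, as its tag has it, 0 of 9 were called higher, against 0.0% of all genes, 0 had an unadjusted p under 0.05, against 7.93% of all genes, and the differences lay between -0.35 and 0.17 (limma, BH adjusted p from 0.92 to 0.994).

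Members of these families share sequence, and reads from shared stretches are divided by estimate. Of the distinct 31-base words in the GENCODE M21 transcripts of Igtp, 15.9% also occurred in Irgm2. Gbp7 shared 14.7% of its words with other genes, most with the predicted gene Gm43802, and Gbp4 shared 14.3%, of which the largest share was with Gbp6, at 6.91% of its words. The other 6 genes shared between 2.20% and 10.7% of their words.

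Other genes of the same families were examined next. Of 22 further GBP, IRG and related large GTPase genes, 18 were tested. Of these, 3 were higher and 0 lower in DKO (limma, BH adjusted p under 0.05), against 6.51% and 4.22% of all genes tested. The median log2 difference was 1.38, against 0.03 over all genes. The IRG Gm4951 (also named Ifgga2) rose, with 28.7, 9.31 and 9.39 TPM in DKO 7, 8 and 9, against 2.94, 2.77 and 3.59 TPM in WT (log2 difference 1.85, SE 0.41; limma, BH adjusted p = 0.0357). The IRG Ifi47 (also named Irgd) rose, with 25.7, 11.6 and 9.35 TPM in DKO, against 3.33, 3.97 and 5.26 TPM in WT (1.57, SE 0.36; limma, BH adjusted p = 0.0388). Gm4070, a very large inducible GTPase with a close relative in Gvin1, rose to 92.7, 51.5 and 38.8 TPM in DKO, against 27.0, 13.5 and 20.8 TPM in WT (1.49, SE 0.36; limma, BH adjusted p = 0.0443). With 1 of the 6 libraries left out at a time, Gm4951 and Ifi47 were each lost in 4 of 6 fits (highest BH adjusted p 0.0906 and 0.0974 in limma), namely without DKO 8 and without each WT library, and Gm4070 in 5 of 6, there also without DKO 7 (highest 0.102).

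Gm12250 (also named Irgb10), an effector IRG that precedes Igtp on chromosome 11, had 73.3, 6.65 and 9.80 TPM in DKO 7, 8 and 9, against 1.42, 2.44 and 2.66 TPM in WT, and missed the threshold (log2 difference 2.55, SE 0.80; limma, BH adjusted p = 0.0924). Without DKO 7, 4 of these 18 genes were higher, against 3.55% of all genes, and 1 was lower, with a median of 0.59. The higher ones were Gm4951, Ifi47, Gm12250 and F830016B08Rik, and Gm4070 was not among them (limma, BH adjusted p = 0.0854). Gm12250 passed there (limma, BH adjusted p = 0.0375), and Gvin1 was the lower one, at 50.7, 2.22 and 0.875 TPM in DKO, against 17.2, 28.6 and 36.1 TPM in WT (limma, BH adjusted p = 0.0153 without DKO 7). DKO 7 was thus above all WT libraries for Gvin1, and DKO 8 and DKO 9 below them.

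The interferons themselves were at or near 0. Of 9 ligand genes, 8 were listed at 0 in all 6 libraries, and Ifng, which encodes interferon gamma, was listed at 0.319 TPM in DKO 9 and at 0 elsewhere. Receptor transcripts were not called in either direction. Ifngr1 had 58.9, 62.0 and 55.7 TPM in DKO, against 53.5, 50.8 and 60.4 TPM in WT (limma, BH adjusted p = 0.522). Ifngr2 (limma, BH adjusted p = 0.238), Ifnar1 (0.553) and Ifnar2 (0.453) likewise missed the threshold, as did the kinases Jak1 (0.563) and Jak2 (0.901).

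Among the transcription factors, Irf1, an interferon-induced factor that binds ISREs, had 67.1, 35.6 and 29.9 TPM in DKO 7, 8 and 9, against 29.7, 31.4 and 29.9 TPM in WT, and the groups overlapped (limma, BH adjusted p = 0.354). Irf9, the DNA-binding part of the type I interferon complex, rose to 47.4, 37.1 and 33.7 TPM in DKO, against 21.6, 20.7 and 20.4 TPM in WT (0.87, SE 0.13; limma, BH adjusted p = 0.0116). Irf8, a factor of macrophages, rose to 12.2, 10.5 and 8.27 TPM in DKO, against 5.68, 5.12 and 5.52 TPM in WT (0.80, SE 0.16; limma, BH adjusted p = 0.0266). Irf9 was called with any 1 of the 6 libraries left out, whereas Irf8 was lost in 5 of 6 such fits, without DKO 7 (limma, BH adjusted p = 0.0696), without DKO 8 (0.0838) and without each WT library. The feedback inhibitor Socs1 had 7.83, 4.73 and 3.47 TPM in DKO, against 3.09, 2.00 and 1.97 TPM in WT (limma, BH adjusted p = 0.1), and the phosphatase Ptpn6 had 15.2, 10.3 and 7.43 TPM in DKO, against 4.69, 5.38 and 6.60 TPM in WT (limma, BH adjusted p = 0.0864). Of the 19 signalling genes, 2 were higher and 0 lower, against 6.51% and 4.22% of all genes tested. Without DKO 7 Irf9 was the 1 still higher, against 3.55% of all genes.

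**Figure D4:**
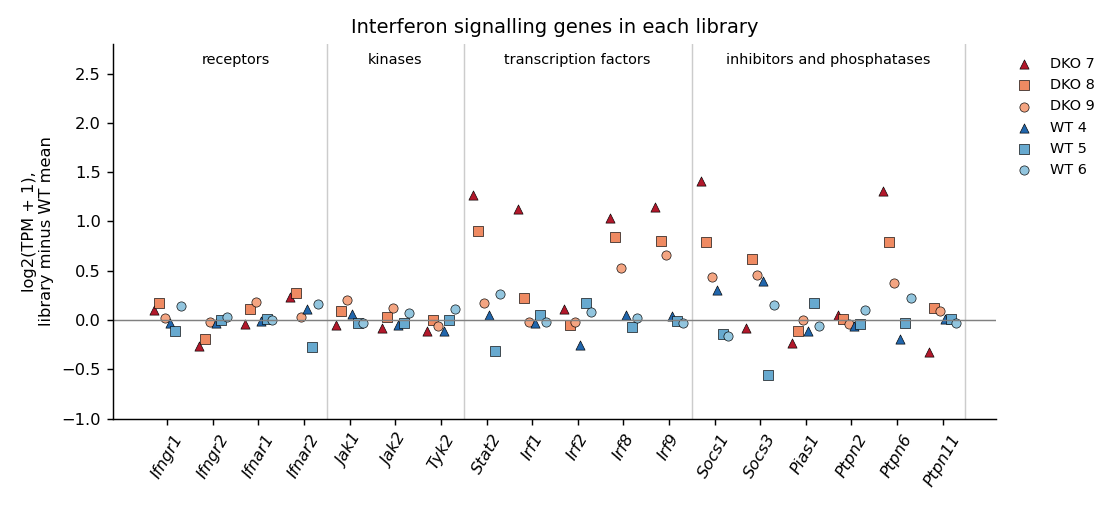
Log2(TPM + 1) of 18 interferon signalling genes in each library minus the WT mean of that gene, grouped by role. Points are libraries, DKO left of WT within each gene. Receptors and kinases lie near 0 in all libraries, while Irf1 in DKO 7 stands at 67.1 TPM, against 35.6 TPM or less in the other libraries.

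Known interferon gamma targets outside the GTPase families were set beside the members. Of 20 such genes, 19 were tested. Of these, 5 were higher and 0 lower (limma, BH adjusted p under 0.05), against 6.51% and 4.22% of all genes tested. The median log2 difference was 0.92, against 0.03 over all genes. Without DKO 7, 5 of 18 were higher, against 3.55% of all genes. The MHC class II chain H2-Aa rose to 375, 186 and 157 TPM in DKO 7, 8 and 9, against 64.5, 60.1 and 86.8 TPM in WT (1.66, SE 0.32; limma, BH adjusted p = 0.024). H2-Eb1 rose to 168, 97.0 and 94.8 TPM in DKO, against 34.4, 31.5 and 51.1 TPM in WT (limma, BH adjusted p = 0.0164). Cd74, the invariant chain, and Serping1, the C1 inhibitor, were called too (limma, BH adjusted p = 0.038 and 0.00794). Serping1 had 174, 186 and 153 TPM in DKO, against 112, 109 and 112 TPM in WT, with DKO 7 between the other DKO libraries. With 1 library left out at a time, Serping1 and H2-Eb1 were called in all 6 fits, H2-Aa was lost in 3 (without DKO 8, WT 4 or WT 5; highest BH adjusted p 0.0684 in limma) and Cd74 in 4 (without DKO 8 or any WT library; highest 0.096).

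Type I interferon-stimulated genes were examined in the same way. Of 25 such genes, 14 were higher and 0 lower (limma, BH adjusted p under 0.05), against 6.51% and 4.22% of all genes tested. The median log2 difference was 1.10. Without DKO 7, the number higher was 8, against 3.55% of all genes. The RNA-binding antiviral protein gene Ifit2 rose to 45.3, 41.4 and 40.9 TPM in DKO, against 11.0, 11.0 and 12.2 TPM in WT (1.81, SE 0.09; limma, BH adjusted p = 5.49e-04). The transcription factor Irf7 (limma, BH adjusted p = 0.00625), Ifi27l2a (0.00438) and Ifit3 (0.0122) rose too, and these 4 genes were called with any 1 library left out. DKO 7 was at least 2-fold over the mean of DKO 8 and DKO 9 for 3 of the 25 type I genes, for 11 of the 19 interferon gamma targets, for 11 of the 18 other GTPases and for 9 of the 9 members, against 251 of all 14541 genes tested. The median log2 gap of DKO 7 over the mean of DKO 8 and DKO 9 was 0.57 for the type I genes, 1.13 for the interferon gamma targets, 1.37 for the other GTPases and 2.00 for the members, against -0.10 over all genes. These lists share libraries and some genes of common control, and the difference between lists was not tested.

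**Figure D5:**
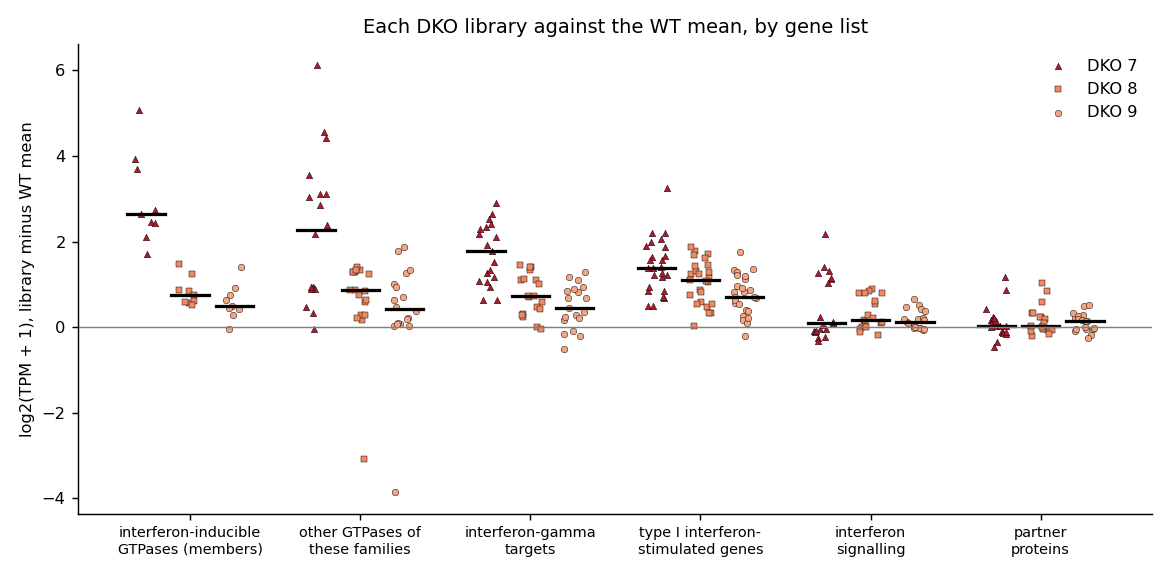
Log2(TPM + 1) of every tested gene in 6 lists, as the level in each DKO library minus the WT mean. Points are genes and thick lines are list medians. For the members the medians are 2.63 in DKO 7, 0.74 in DKO 8 and 0.50 in DKO 9, and for the type I interferon-stimulated genes 1.38, 1.09 and 0.70.

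Proteins that work with GBPs and IRGs showed no call. The list holds inflammasome genes, genes of the ATG8 conjugation system that directs IRGs and GBPs to vacuoles, and adaptors and ubiquitin ligases such as Sqstm1 and Traf6. Of 19 tested, 0 were higher and 0 lower (limma, BH adjusted p under 0.05), against 6.51% and 4.22% of all genes tested. The median log2 difference was 0.12. Without DKO 7, 0 were called, against 3.55% of all genes called higher. The cytosolic DNA sensor Aim2, a partner of GBPs in inflammasome activation, had 9.92, 15.4 and 12.1 TPM in DKO 7, 8 and 9, against 8.42, 7.76 and 8.39 TPM in WT (limma, BH adjusted p = 0.091). Caspase gene Casp4 had 6.96, 13.4 and 9.04 TPM in DKO, against 6.66, 6.56 and 5.11 TPM in WT (limma, BH adjusted p = 0.178). In both, DKO 7 was the lowest DKO library. The ATG8 protein Gabarap had 310, 302 and 301 TPM in DKO, against 263, 256 and 278 TPM in WT (limma, BH adjusted p = 0.0779).

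Cell type markers were measured in the same libraries. For comparison with the calls below, 6.51% of all genes tested were called higher and 4.22% lower, and 3.55% higher without DKO 7. Macrophage markers summed to 947, 811 and 699 TPM in DKO 7, 8 and 9, against 498, 424 and 583 TPM in WT over 15 genes, none of which was at 0 in any library, and 8 were higher and 1 lower in DKO, against 2 higher and 1 lower without DKO 7 (limma, BH adjusted p under 0.05). DKO 7 was at least 2-fold over the mean of DKO 8 and DKO 9 for 0 of these 15 markers. T and NK cell markers, which mark the main sources of interferon gamma, summed to 20.4, 19.8 and 20.7 TPM in DKO, against 23.0, 35.8 and 17.9 TPM in WT over 15 genes, with 5, 8 and 4 of them at 0 in DKO 7, 8 and 9 and 2, 5 and 6 at 0 in WT. Cd3e, of the T cell receptor complex, read 0, 0.672 and 1.82 TPM in DKO and 0.319, 0.550 and 0 TPM in WT. B cell and neutrophil markers summed to 92.7, 79.5 and 59.6 TPM in DKO, against 52.5, 61.3 and 44.8 TPM in WT over 8 genes. Endothelial markers summed to 2369, 2295 and 2121 TPM in DKO, against 2612, 2258 and 2748 TPM in WT over 15 genes, and 0 were higher and 3 lower, with 1 lower without DKO 7. Fibroblast markers summed to 2140, 2693 and 2437 TPM in DKO, against 2070, 2051 and 1999 TPM in WT over 12 genes, and 6 were higher and 0 lower in DKO, with 5 higher without DKO 7 (limma, BH adjusted p under 0.05). Postn, the matrix protein periostin of activated fibroblasts, rose by 2.06 on the log2 scale (limma, BH adjusted p = 0.00227). Erythroid markers summed to 6798, 1800 and 2211 TPM in DKO, against 6082, 38550 and 14226 TPM in WT over 8 genes. Within that list the alpha-globin gene Hba-a1 had 3096, 1115 and 1407 TPM in DKO, against 2596, 13606 and 4951 TPM in WT. Hbb-bs stood at 1.15 and 0.892 TPM in DKO 8 and DKO 9, so the sum joins globin rows of unlike pattern and is not a measure of blood content. The part of these cell types in the GTPase levels was not tested.

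The genes whose pattern lay closest to the mean pattern of the 9 GTPases were sought among the other tested genes. Genes with predicted-gene names (Gm or Rik) were left out, among them IRGs such as Gm12250, so closer genes of that kind would not appear. Likeness was the root-mean-square difference of log2(TPM + 1) profiles over the 6 libraries, each centred on its WT mean. The closest 5 were Tap1 (0.240), the IRG Tgtp2 (0.240), B2m (0.289), H2-K1 (0.305) and Zbp1 (0.306). Tap1, a peptide transporter of MHC class I loading, had 64.0, 21.6 and 15.7 TPM in DKO 7, 8 and 9, against 11.7, 7.16 and 9.92 TPM in WT. B2m, the light chain of MHC class I, had 1989, 774 and 600 TPM in DKO, against 387, 367 and 467 TPM in WT. In all 5, DKO 7 was the highest library and DKO 8 and DKO 9 lay above every WT library. The genes were chosen for their likeness to such a pattern, so this is a description of the choice.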

How the data were processed

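The study's authors deposited 1 table of TPM values per gene and library, with replicates kept apart. Tools named per the submitters' processing notes are kallisto 0.44.0 and bcl2fastq, with the build mm10; how transcripts were combined into genes is not given in the sources used here. Per the series' design text, libraries were stranded and read in pairs of 75 bases. The 14541 genes reaching 1 TPM in 3 or more libraries were fitted with limma 3.58.1 in R 4.3.3 (lmFit, eBayes with trend) on log2(TPM + 1), and p-values were adjusted by BH across all of them, with calls made under 0.05. The 1 added to TPM before the log understates changes of low genes. The fit was tested on simulated data. The labels do not state whether each library is a different animal; the spread behind each p-value is that between libraries and may be technical. Alternatives changed the pseudocount (0.1), filter (none, 5 TPM), scaling, variance trend, samples, a term for Y-linked transcripts and the label of replicate 7. No set test was run. Motif search, alignment and word counts used python 3.11.15 and biopython 1.88, and figures matplotlib 3.10.9. Promoter windows are from RefSeq and coordinates from RefSeq GRCm38.p6.

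The 9 members and the gene lists were chosen with earlier results of these data known. Named genes are the members, Mbnl1, Mbnl2, the ligands, receptors, Jak1, Jak2 and Irf1, up to 4 genes of smallest p per list (not all are described) and the 5 closest patterns. Gvin1, Cd3e, Hbb-bs, Hba-a1, F830016B08Rik, Sqstm1, Traf6 and the genes of the closing observations were chosen after their values were seen.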

Additional observations from a re-analysis of the deposited data

How the results depend on the processing

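Of 144 member differences recomputed under 16 alternatives, 137 were above 0, and 3 passed the threshold, all without DKO 7. With replicate 7 counted as WT the log2 difference was -0.17 for Gbp2, -0.020 for Gbp4, -0.16 for Gbp7, -0.063 for Irgm1 and -0.35 for Iigp1. With a term for Y-linked transcripts, or with only libraries that carried them, it was -0.036 for Gbp2; in both fits the difference rests on DKO 9. The number of members called was 0 except without DKO 7, so leaving out 1 library gave 0 to 3. The 1560 genes called among all tested became 1 with replicate 7 as WT, 92 with the Y-linked term, 29 with only libraries carrying Y-linked transcripts, and 628 to 876 with 1 library left out. The 24 calls among the other GTPase, signalling, target and partner lists became 0, 1 and 1 under the first 3 of these, and 7 (without DKO 8) to 26 (without DKO 9) with 1 library left out. The cause was not tested. Of all calls, 60.6% were higher in DKO, against 51.7% with median-ratio scaling, 47.8% with the Y-linked term, 27.6% with only libraries carrying Y-linked transcripts and 0% with replicate 7 as WT. No paired analysis was possible because DKO and WT share no replicate numbers. TPM keeps no read counts, so the depth limit of low values such as Ifng is unknown.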

Other observations

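Other genes that were not called with all 6 libraries also had their highest value in DKO 7. F830016B08Rik (also named Ifgga4), an IRG of the same chromosome region as Iigp1, had 1723 TPM in DKO 7, 64.8 and 90.1 TPM in DKO 8 and DKO 9, against 24.3 ± 6.18 TPM in WT (SD, n = 3), so that DKO 7 was 70.9-fold over the WT mean, against 2.66-fold in DKO 8 and 3.70-fold in DKO 9. Gbp6 had 294, 58.2 and 59.5 TPM in DKO, against 33.5, 14.4 and 28.8 TPM in WT. The chemokine Cxcl10 had 5.78, 2.25 and 1.40 TPM in DKO, against 0.428, 0.740 and 0.364 TPM in WT. The class II transactivator relative Nlrc5, which drives MHC class I genes, had 32.9, 11.6 and 7.80 TPM in DKO, against 3.57 ± 0.220 TPM in WT (SD, n = 3), and missed the threshold with all 6 libraries (limma, BH adjusted p = 0.0565) but passed without DKO 7 (limma, BH adjusted p = 0.034).

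DKO 7 and DKO 8 both carried Xist, and the 9 GTPases summed to 2010.0 TPM in DKO 7 and 302 TPM in DKO 8. All WT libraries carried Y-linked transcripts, and a link of Xist or Y-linked transcripts to the GTPase levels was not tested. DKO 7 was also the DKO library that carried Hbb-bs and Gvin1 at the level of WT or above it. The sources used here give no label that separates DKO 7 from the other DKO libraries other than its genotype tag.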
